A study of Homo sapiens with 38 samples.

Results

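The 38 genes described here encode proteins that make ribosomes, together with subunits and factors of RNA polymerase I. They were chosen by name, but with earlier results of these data known. All 38 were listed in the count tables, which held 50652 genes for BE2C cells and 50778 for the other lines. All 38 also passed the filter on low counts in every fit. Total RNA had been sequenced from established human neuroblastoma cell lines, and the values used here are read counts per gene. BE2C cells, which carry MYCN amplification, had been exposed to GSK-J4, an inhibitor of the KDM6 histone demethylases, at 2.5 µM for 0 h, 24 h or 48 h, with 2 libraries at each time. Other BE2C cultures had been transfected for 72 h with a control siRNA (siCtrl, 2 libraries) or with siRNA N1, N2 or N33 against KDM6B (1 library each). Palbociclib, an inhibitor of CDK4/6, had been given for 72 h to 4 other lines, with 2 palbociclib and 2 control libraries per line. The dose was 0.3 µM in CHLA15 and CHLA20 and 3 µM in NB1643 and NB1691. CHLA15 and CHLA20 are known to derive from the same patient, and libraries of a line share that line, so libraries of a line are not replicates of a MYCN status. The labels do not say whether replicates were separate cultures, so p-values measure only the spread between these samples, which may be technical.

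Ribosome production starts in the nucleolus, where RNA polymerase I copies the ribosomal DNA into 1 long precursor RNA. Small nucleolar ribonucleoproteins, of the box C/D and box H/ACA classes, then methylate and pseudouridylate the precursor. The small subunit processome folds and cuts the part that becomes the 40S subunit, and a separate set of assembly factors builds the 60S subunit. Genes of this pathway are widely known as targets of the MYC family of transcription factors, of which MYCN is the member amplified in a large share of high-risk neuroblastomas.

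By role the genes fell into 6 for RNA polymerase I, 6 for abundant nucleolar proteins, 3 for the box C/D core, 4 for the box H/ACA core, 8 for the small subunit and 11 for the large subunit. The libraries held 36186567 to 93011010 counts on genes, so that even PPAN, the member with the lowest level, had 2.2 CPM (counts scaled to a library of 1000000) or more in every library. CPM values rest throughout on library sizes scaled by the trimmed mean of M-values (TMM), and a fold change is on the log2 scale with its standard error (SE). Because the BE2C tables and those of the other lines were fitted apart, no test was made between them. Reads on no annotated gene made up 16.1% to 16.8% of the N1 and N2 libraries against 12.5% to 13.0% of the other siRNA libraries. In the GSK-J4 libraries this share was 12.4% to 12.6% at 48 h against 10.1% to 10.5% at the earlier times. Whether these shares bear on the members was not tested.

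Markers of sympathetic neuroblastoma were checked in each line. HAND2, a transcription factor of the sympathetic lineage, was at 363 to 895 CPM in the CHLA15, CHLA20 and NB1643 libraries and at 212 to 537 CPM in BE2C cells. GATA3, another such factor, was at 241 to 369 CPM in those 3 lines and at 51.2 to 82.5 CPM in BE2C cells. NB1691 stood apart in some markers, with HAND2 at 90.5 to 112.2 CPM, GATA3 at 32.5 to 39.1 CPM and TH, the first enzyme of catecholamine synthesis, at 0.7 to 2.0 CPM. ISL1 and PHOX2A also set it apart. ISL1 was at 19.2 to 20.9 CPM in NB1691, against 68.4 CPM or more in the libraries of the other lines. PHOX2A was at 42.4 to 57.1 CPM in NB1691, against 92.0 CPM or more. DBH and CHGA did not set it apart as clearly. DBH was at 12.6 and 14.7 CPM in the NB1691 controls, against 13.0 and 13.1 CPM in the NB1643 controls. CHGA was at 190 and 215 CPM in the NB1691 controls, against 308 to 395 CPM in the other controls. With palbociclib CHGA was at 353 and 354 CPM in NB1691, against 274 and 287 CPM in CHLA20. The collagen gene COL1A1 was at 14558 to 19850 CPM in NB1691, against 30.5 to 105.8 CPM in the CHLA lines and at most 1.4 CPM in NB1643. SOX10 was at or near 0 in every library, and PRRX1 and PTPRC were at or near 0 outside NB1691, where PRRX1 reached 2.1 CPM and PTPRC 0.5 CPM. MYCN was at 3093 and 3257 CPM in the NB1643 controls, 86.1 and 86.5 CPM in the NB1691 controls, and 2.3 to 3.4 CPM in the CHLA15 and CHLA20 controls. MYC ran otherwise, at 662 to 719 CPM in the CHLA lines, 66.2 and 72.9 CPM in NB1691 and 0.1 and 0.6 CPM in NB1643. These levels leave the identity of the line labelled NB1691 in doubt, and its values below are those of the label. The comparison of untreated lines is therefore given with and without it. The control libraries of NB1643 and of CHLA20 also differed more between replicates than those of other groups, with a chi-square per degree of freedom of 24.3 and 19.2, against 2.22 to 7.14 elsewhere in the palbociclib experiment.

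Promoter sequence was looked at because MYC family proteins bind the E-box CACGTG, which reads the same on both strands. RefSeq windows of 300 bases on GRCh38.p14, from 250 before to 50 after a transcript start, were at hand for 31 of the 38 genes (40 windows). The E-box was in 14 of those 40 windows (35%), against 2548 of 35116 windows of all genes (7.26%). The 14 windows belonged to 14 genes. The E2F octamers TTTCCCGC, TTTCGCGC, TTTGCCGC and TTTGGCGC, searched on both strands, were found in the window of 1 member only, PES1 (2.5% of member windows), against 3.31% of all windows. A match is a description of the letters and not evidence of binding. The E-box is in capitals in the stretches shown, and the position of its first base is counted from the start at 0. Stretches are given for 6 of the genes with the lowest or highest fold changes below. They lie on GRCh38.p14 at chr12:101280083-101280112 on the plus strand for UTP20 (position -10), chr3:51941892-51941921 on the minus strand for RRP9 (position -5), chr4:4290068-4290097 on the minus strand for LYAR (position -64), chr19:39846356-39846385 on the minus strand for FBL (position 6), chr2:28894658-28894687 on the plus strand for WDR43 (position 3) and chr1:19251807-19251836 on the plus strand for MRTO4 (position 14).
UTP20: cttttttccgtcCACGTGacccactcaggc
RRP9: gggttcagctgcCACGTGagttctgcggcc
LYAR: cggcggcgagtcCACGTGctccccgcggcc
FBL: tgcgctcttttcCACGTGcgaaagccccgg
WDR43: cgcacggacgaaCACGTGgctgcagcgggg
MRTO4: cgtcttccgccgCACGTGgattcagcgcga
In 5 of these 6 genes the E-box began within 14 bases of the annotated start. PES1, also among the highest in the comparison of untreated lines, has an E-box at position 13 that is not shown. NHP2, UBTF, RRN3 and NPM1, which are also among the lowest or highest fold changes below, had no E-box in their windows.

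Per kilobase of exon, NPM1 (nucleophosmin, a nucleolar chaperone) and NCL (nucleolin) were the most abundant members in BE2C cells at 0 h, at 519 and 235 CPM per kb. PPAN, a 60S assembly factor, was the lowest at 1.57 CPM per kb, and POLR1A, the largest subunit of RNA polymerase I, was at 6.02 CPM per kb. The order was not the same in every line. FBL, or fibrillarin, the methyltransferase of box C/D particles, was the highest member per kb in the CHLA15 controls (191 CPM per kb) and the CHLA20 controls (197 CPM per kb), and WDR43, a processome protein, was the highest in the NB1691 controls (125 CPM per kb). These are levels from lengths on the GENCODE annotation lifted to GRCh37, and not differences. A length here joins the exons of all annotated transcripts of a gene, such as 8311 bases for NPM1 and 2138 for FBL. The order of members thus depends on it. In mean CPM, without the length, NPM1 was above FBL in the controls of CHLA15 (1128 against 407) and CHLA20 (1257 against 421). It was also above WDR43 in the NB1691 controls (955 against 514).

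In BE2C cells exposed to GSK-J4 most of the members fell, and they fell further between 24 h and 48 h. At 24 h, 30 of the 38 were lower than at 0 h and 2 were higher, against 28% and 27.3% of all genes tested. By 48 h, 33 were lower and 3 higher, against 34.4% and 37.1% of all genes. The median member changed by -0.33 at 24 h and by -0.61 at 48 h on the log2 scale, whereas the median over all genes was 0.01 and 0.05. Between 24 h and 48 h a further 29 members were lower and 2 higher, against 28% and 25.9% of all genes. In 30 members both libraries at 24 h lay below both at 0 h and both at 48 h lay below both at 24 h, against 22.5% of all genes. Only RRN3 went stepwise the other way, a pattern found in 20.8% of all genes. MYCN fell over the same hours, from 3004 and 3027 CPM to 1669 and 1717 CPM and then to 1467 and 1433 CPM. The proliferation marker MKI67 was at 322 and 353 CPM, then 222 and 221 CPM, and then 201 and 189 CPM. KDM6B rose from 7.4 and 8.2 CPM to 16.1 and 16.6 CPM and then to 23.7 and 22.8 CPM. The part of any of these genes in the members' change was not tested. No vehicle control was given for the later times, so time in culture and the compound cannot be told apart. Without replicate 2 at 24 h, 1 member and not 2 was higher at 24 h. Fold changes above are relative to TMM, and with upper-quartile scaling the median over all genes at 48 h was 0.16 rather than 0.05. Under that scaling the 48 h against 24 h calls over all genes were 5558 higher and 4007 lower, in place of 4593 and 4958.

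**Figure D1:**
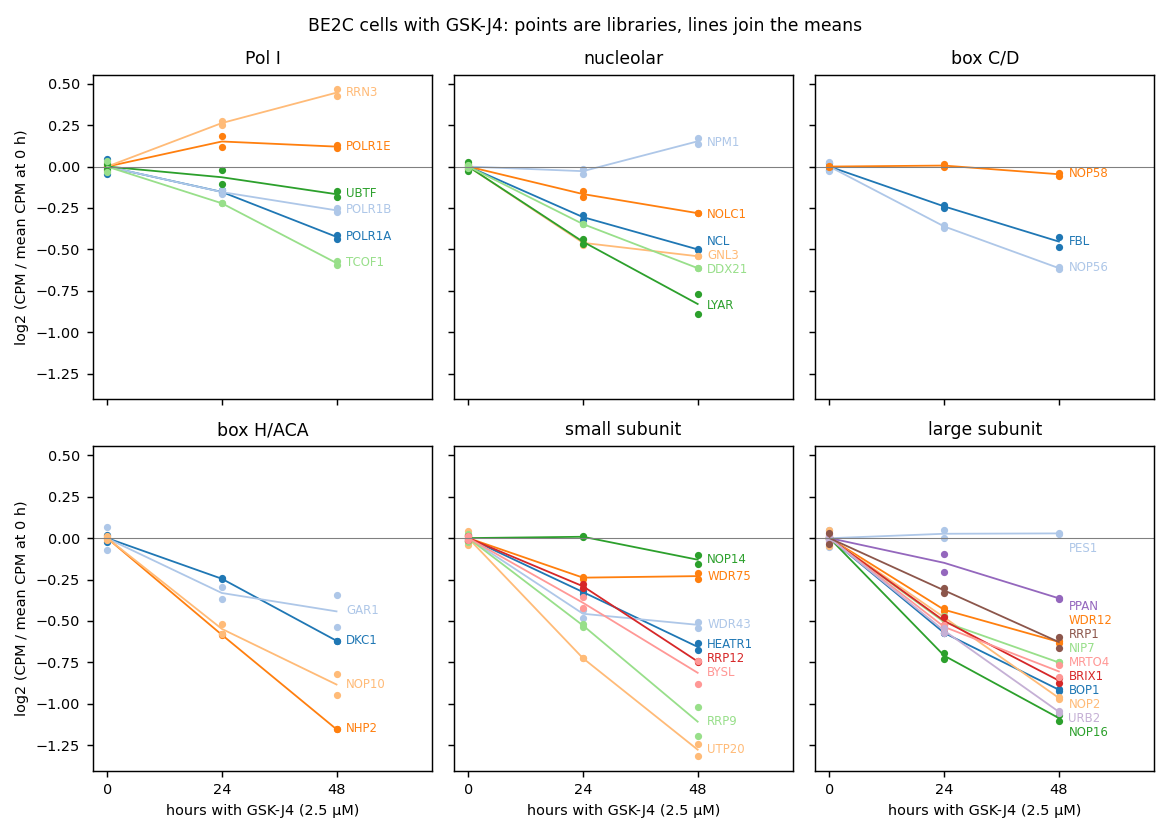
Change of the 38 genes in BE2C cells over 48 h with GSK-J4 at 2.5 µM, as log2 of CPM over the mean CPM at 0 h, against hours of exposure, with 1 panel for each role. Points are the 2 libraries at each time and lines join their means; most lines slope down at each step, with UTP20 lowest at 48 h (fitted change -1.28) and RRN3 highest (0.45).

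The genes for RNA polymerase I had the median nearest 0 of the 6 roles, at -0.22 at 48 h, with 4 of 6 lower and 2 higher. POLR1A was at 115.0 and 122.3 CPM at 0 h, 107.4 and 106.0 CPM at 24 h and 87.6 and 89.2 CPM at 48 h, a change of -0.42 (SE 0.03, edgeR adjusted p = 5.05e-15). POLR1B, the second largest subunit, went from 84.3 and 87.4 CPM to 76.4 and 77.9 CPM and then to 70.9 and 72.0 CPM (-0.26, SE 0.04, edgeR adjusted p = 1.31e-08). In both subunits the 3 times did not overlap. UBTF, which binds ribosomal DNA and recruits the polymerase, was at 163.0 and 166.1 CPM at 0 h and 144.8 and 148.3 CPM at 48 h, a small decrease of -0.17 (edgeR adjusted p = 1.18e-05), and did not pass the test at 24 h (edgeR adjusted p = 0.0923). TCOF1, or treacle, a nucleolar cofactor of the polymerase, fell the most of this group, by 0.58 at 48 h. RRN3, the factor that makes the polymerase competent to start, rose from 124.8 and 121.5 CPM to 146.6 and 148.8 CPM at 24 h and 165.4 and 170.1 CPM at 48 h (0.45, SE 0.03, edgeR adjusted p = 5.64e-17). POLR1E, another polymerase subunit, was at 45.2 and 45.1 CPM at 0 h, 49.0 and 51.3 CPM at 24 h and 49.4 and 48.7 CPM at 48 h (0.12, edgeR adjusted p = 0.0119). The rise of POLR1E did not pass the test with DESeq2 (adjusted p = 0.150), and RRN3 shares sequence with 3 pseudogenes that together had 8.05% as many counts as RRN3 itself, so reads could be split between them.

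Of the nucleolar proteins, 5 of 6 fell and NPM1 rose. NCL went from 2097 and 2101 CPM at 0 h to 1717 and 1682 CPM at 24 h and 1490 and 1479 CPM at 48 h, a change of -0.50 (SE 0.03, edgeR adjusted p = 4.83e-22). LYAR, a zinc finger protein of the nucleolus, fell the furthest of the group, from 41.8 and 43.5 CPM to 23.0 and 25.1 CPM at 48 h (-0.83, edgeR adjusted p = 3.27e-19). NPM1 was at 4271 and 4355 CPM at 0 h, 4276 and 4185 CPM at 24 h and 4730 and 4857 CPM at 48 h, so its libraries overlapped over the first 24 h and lay above all earlier ones at 48 h (0.15, SE 0.03, edgeR adjusted p = 1.58e-06). It stayed higher under DESeq2, limma-voom, library totals and upper-quartile scaling, at 0.12 to 0.26. NPM1 has 45 listed pseudogenes, which had 1.07% as many counts. DDX21, an RNA helicase, GNL3, or nucleostemin, and NOLC1, a chaperone of snoRNPs, changed by -0.61, -0.54 and -0.28.

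All 4 box H/ACA proteins fell by 48 h, with a median of -0.75. NHP2 fell the most, from 181.6 and 180.3 CPM through 120.5 and 121.0 CPM to 81.3 and 81.3 CPM (-1.15, SE 0.03, edgeR adjusted p = 1.8e-32). DKC1, or dyskerin, the pseudouridine synthase of these particles, went from 225.6 and 232.3 CPM through 193.5 and 192.8 CPM to 148.8 and 149.1 CPM (-0.62, SE 0.03, edgeR adjusted p = 4.24e-23). NOP10 changed by -0.89 and GAR1 by -0.43. Of the 3 box C/D proteins, FBL was at 176.3 and 182.1 CPM, then 152.5 and 150.9 CPM and then 133.7 and 128.3 CPM (-0.45, SE 0.03, edgeR adjusted p = 3.13e-17). NOP56 changed by -0.61, whereas NOP58, which pairs with it in the particle, was at 195.6 and 194.3 CPM at 0 h and 187.6 and 190.0 CPM at 48 h and did not pass the test (-0.05, edgeR adjusted p = 0.158). DESeq2 gave NOP58 an adjusted p = 0.0427, with a change of -0.08.

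The subunit assembly factors held the lowest single values. All 8 small subunit genes were lower at 48 h, with a median of -0.70, and 10 of 11 large subunit genes were lower, with a median of -0.81. UTP20, a scaffold of the small subunit processome, had the lowest fold change of all members, from 289.1 and 306.8 CPM to 180.2 and 180.3 CPM at 24 h and 119.9 and 126.1 CPM at 48 h (-1.28, SE 0.03, edgeR adjusted p = 3.01e-34). RRP9, a protein of the U3 particle that the processome is built on, fell from 54.1 and 55.9 CPM to 38.4 and 37.9 CPM and then to 24.1 and 27.1 CPM (-1.11, SE 0.05, edgeR adjusted p = 1.84e-24). Both have an E-box within 10 bases before their start, as shown above. The 60S factors NOP16, URB2, NOP2 and BOP1 changed by -1.09, -1.05, -0.96 and -0.91. PES1, which forms the PeBoW complex with BOP1 and WDR12, was at 200.8 and 215.6 CPM at 0 h and 211.7 and 212.9 CPM at 48 h, with overlapping libraries (0.03, edgeR adjusted p = 0.426). Its window also holds an E-box. Its partner WDR12 changed by -0.63. With library totals or upper-quartile scaling PES1 was called higher, at 0.07 and 0.14. The median change at 48 h was -0.71 over the 14 genes with an E-box (range -1.28 to 0.03) and -0.61 over the 17 genes whose window lacked it (range -1.15 to 0.45), so the ranges overlapped widely.

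Further genes of the pathway moved mostly in the same direction. Of 112 further ribosome biogenesis genes 111 were tested at 48 h, and 85 were lower and 15 higher, beside the 34.4% and 37.1% of all genes, with a median of -0.44. The lowest were WDR46 and PNO1, both of the small subunit pathway, at -1.56 and -1.49, and the highest were RSL24D1, a 60S factor, at 0.77 and POLR1D, a subunit shared by RNA polymerases I and III, at 0.66. Subunits of the other polymerases also changed. Of 7 genes of RNA polymerase II, 6 were lower and 1 higher, and of 10 of RNA polymerase III, 8 were lower and 1 higher, both with a median of -0.48.

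**Figure D2:**
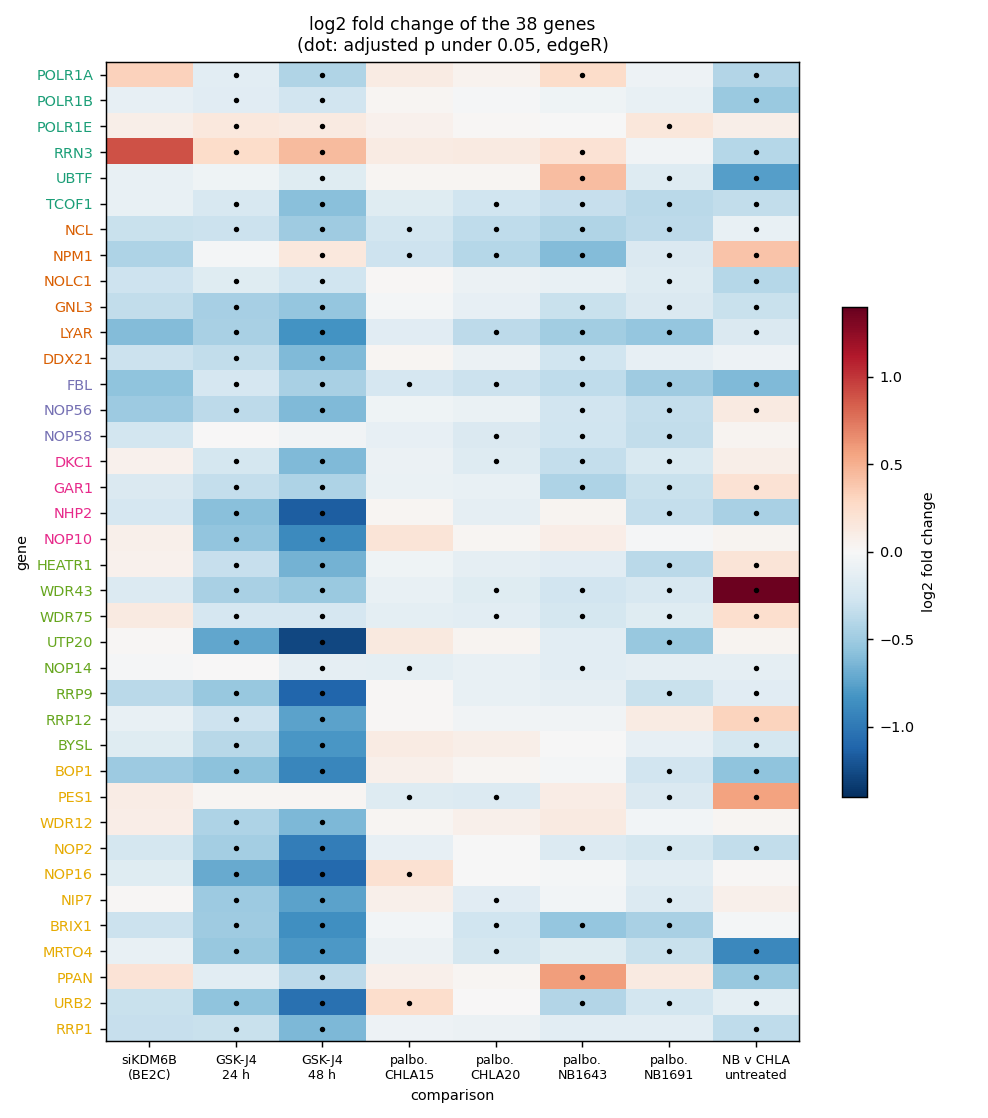
Log2 fold change (colour, red higher and blue lower) of the 38 genes (rows, names coloured by role in the order RNA polymerase I, nucleolar, box C/D, box H/ACA, small subunit, large subunit) in 8 comparisons (columns), with a dot where the edgeR adjusted p was under 0.05. The GSK-J4 48 h column is blue and dotted in 33 rows, the siKDM6B column has no dot, and the column of untreated NB against CHLA lines holds both colours, with 20 genes lower and 8 higher.

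The siRNA libraries were compared next, to see whether the members also fell when KDM6B was targeted. KDM6B itself had 6.5 and 8.8 CPM under siCtrl. The siRNA libraries, in the order N1, N2, N33 of their labels, held 9.0, 7.1 and 8.3 CPM of it (0.09, SE 0.30, edgeR adjusted p = 0.945). Its mRNA was thus not lower in the libraries labelled siKDM6B, and the directions below are those of the labels. The study describes depletion of KDM6B by siRNA in BE2C cells, with protein blots. The counts here are of mRNA only and do not measure the protein. No member passed the test (0 of 38), nor did any other gene (0% of 17472). The unadjusted p was under 0.05 for 2 members, RRN3 and LYAR, against 9.24% of all genes. DESeq2 and limma-voom also called 0 members. Over all genes DESeq2 called 70 higher and 94 lower, and limma-voom called 0 of either. The libraries labelled N1, N2 and N33 were fitted together as the siKDM6B group, so different siRNAs stood in for replicates. The common coefficient of variation between these 5 libraries was 35.0%, which includes any differences between the siRNAs. It is therefore not a like measure to the 2.19% in the GSK-J4 fit, where libraries of a group had the same label. The absence of calls thus does not show that each siRNA left the members unchanged. The median member was at -0.17, beside 0.04 over all genes.

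**Figure D3:**
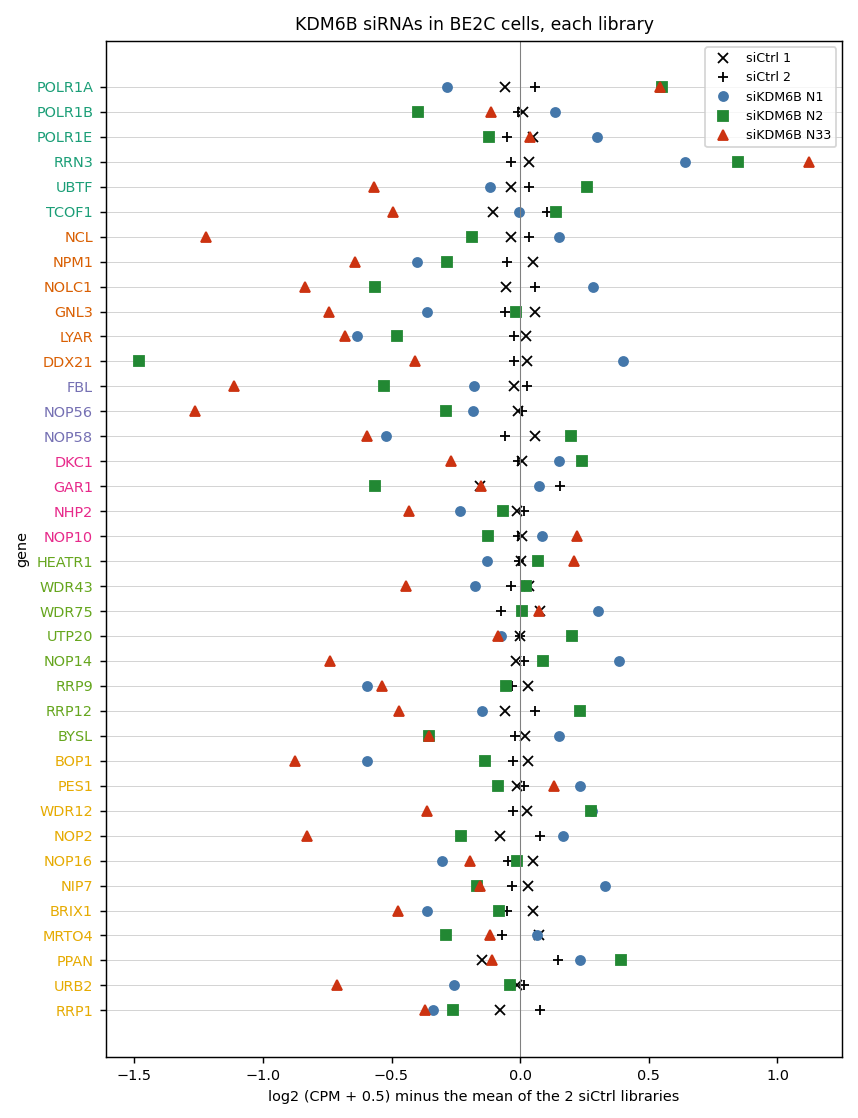
Level of the 38 genes in the 5 siRNA libraries of BE2C cells, as log2 of CPM plus 0.5 minus the mean of the 2 siCtrl libraries (crosses), with 1 symbol for each siRNA and names coloured by role. The siCtrl crosses stay near 0, the N33 triangles lie lowest for many genes, and RRN3 is above siCtrl with all 3 siRNAs.

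The single siRNA libraries differed in the members' levels. Against the siCtrl mean, the median member was -0.04 in the library labelled N1 (20 of 38 below), -0.08 in N2 (24 of 38 below) and -0.42 in N33 (31 of 38 below), while the 2 siCtrl libraries differed by a median of -0.02. With 1 library each, these differences have no replicate check. N33 was also the library in which MYCN was at 466 CPM, against 1596 and 1613 CPM in siCtrl and 1742 and 1736 CPM in N1 and N2, and in which MKI67 was at 33.9 CPM, against 136 to 194 CPM in the other 4. CHGA was at 272 CPM in N33, against 1200 to 1581 CPM in the other 4, DBH at 9.9 CPM, against 31.5 to 124.3 CPM, and HAND2 at 212 CPM, against 370 to 537 CPM. The part of these in the members' levels was not tested. NCL had 1757 and 1843 CPM under siCtrl, against 1995, 1580 and 773 CPM in the order N1, N2, N33, so it was lowest with N33. DKC1 was at 185.0, 197.0 and 138.2 CPM in N1, N2 and N33, on both sides of the 167.7 and 165.8 CPM in siCtrl.

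Genes on which the 3 siRNAs lay on 1 side of both siCtrl libraries were 10 lower members, against 16.8% of all genes, and 1 higher member, against 16.3%. The higher one was RRN3, at 203.8, 234.8 and 284.4 CPM in N1, N2 and N33, above the siCtrl values of 133.5 and 127.3 CPM (0.89, SE 0.23, edgeR adjusted p = 0.520). LYAR had 39.4 and 38.2 CPM under siCtrl, against 24.8, 27.7 and 24.0 CPM with the siRNAs (-0.60, SE 0.21, edgeR adjusted p = 0.523). FBL had 144.5 and 149.7 CPM under siCtrl, against 129.8, 101.8 and 67.8 CPM with the siRNAs (-0.56, SE 0.30, edgeR adjusted p = 0.613). NPM1 was below siCtrl in all 3 libraries as well, at 2843, 3083 and 2406 CPM against 3890 and 3622 CPM. POLR1A was mixed, at 66.4 CPM in N1 and 119.2 and 118.5 CPM in N2 and N33, against 77.8 and 84.4 CPM in siCtrl. POLR1B and UBTF lay on both sides of siCtrl, at 54.0 to 78.4 CPM and 107.0 to 190.3 CPM. BOP1 had 46.6 and 44.7 CPM under siCtrl, against 30.0, 41.4 and 24.6 CPM (-0.51, SE 0.28). PPAN had 4.0 and 5.0 CPM under siCtrl, against 5.3, 6.0 and 4.1 CPM, so that its libraries overlapped (0.20, SE 0.33).

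The untreated controls of the 4 lines show how the members differ between lines with different MYCN levels. As designed, with the mean of NB1643 and NB1691 set against the mean of CHLA15 and CHLA20, 20 members were lower and 8 higher in the NB lines, against 36.8% and 35% of all genes, with a median of -0.12. With the control libraries of each line summed, so that 2 lines stood against 2 lines, 0 members were called. Calls over all genes were not counted for that fit, so its 0 is not a result about the members. Without NB1691, NB1643 was higher than the CHLA lines in 22 members and lower in 6, against 36.4% and 36.1% of all genes. Without NB1643, NB1691 was higher in 4 members and lower in 29, against 43.6% and 39.8% of all genes. The medians were 0.25 for NB1643 and -0.48 for NB1691. There were 16 members called higher in NB1643 and lower in NB1691, and these comparisons share the CHLA controls. How many of all genes had opposite calls, or the same call in both NB lines, was not counted. With library totals in place of TMM the whole table shifted, to a median of -0.15 and 6011 genes higher and 10014 lower, in place of 7738 and 8143, and 3 members were then higher and 30 lower.

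**Figure D4:**
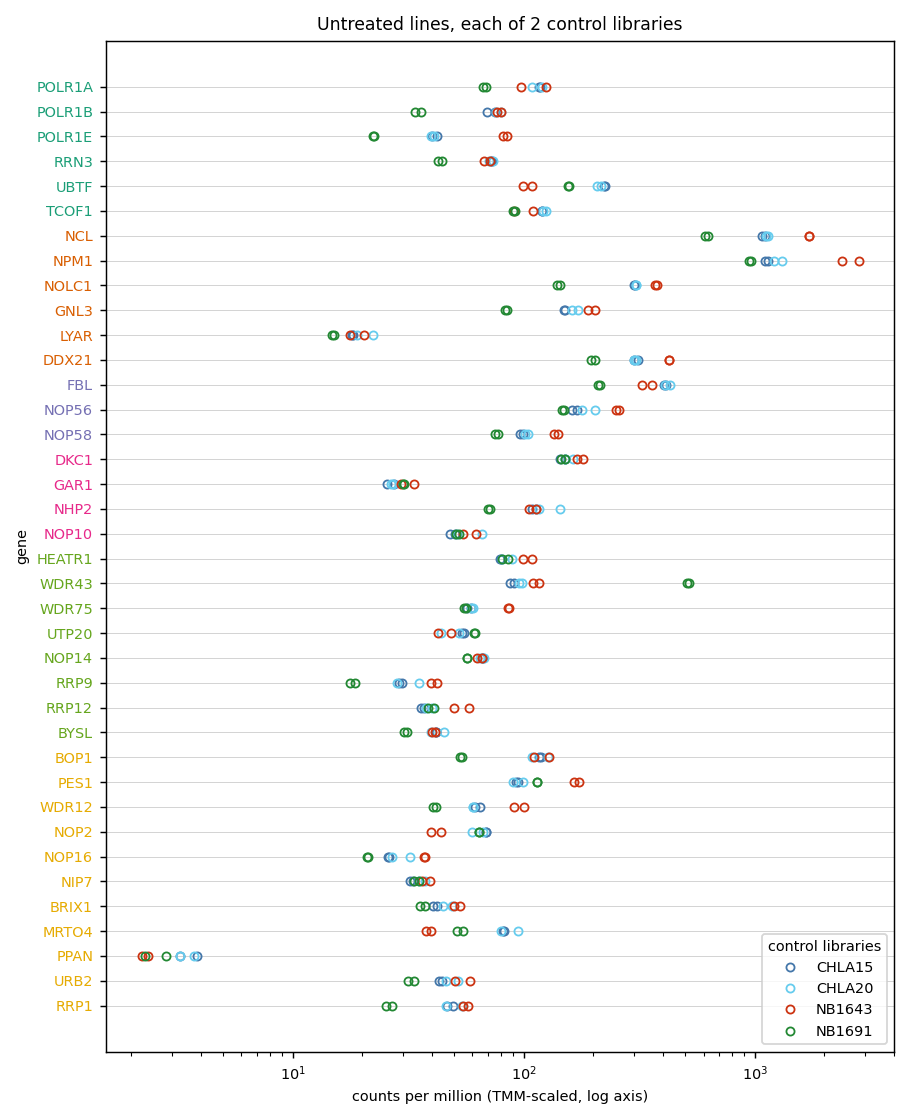
Level of the 38 genes in the 8 control libraries of CHLA15, CHLA20, NB1643 and NB1691, in TMM-scaled CPM on a log axis, with 1 circle for each library and names coloured by role. NB1643 has the highest mean for 23 genes and NB1691 the lowest for 25, while WDR43 lies far to the right in NB1691. The same counts over all genes were not made.

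NB1643, with the highest MYCN, had the highest mean of the 4 lines for 23 members, in 18 of them without overlap with the next line. NB1691 had the lowest mean for 25 members, in 24 of them without overlap. The same counts over all genes were not made, so these do not show a trait particular to the members. NPM1 was at 2390.5 and 2810 CPM in NB1643, 1144 and 1111 CPM in CHLA15, 1207 and 1308 CPM in CHLA20 and 946 and 964 CPM in NB1691. In the comparison as designed its log2 difference was 0.40 (SE 0.04, edgeR adjusted p = 9.17e-08), made up of 1.16 in NB1643 and -0.37 in NB1691. NCL showed the same order, at 1723 and 1715 CPM in NB1643, 1103 and 1074 CPM in CHLA15, 1139 and 1121 CPM in CHLA20 and 611 and 628 CPM in NB1691. POLR1E, at 81.4 and 84.3 CPM in NB1643 and 22.6 and 22.3 CPM in NB1691, lay on both sides of the CHLA lines, which held 39.9 to 42.2 CPM.

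Members that were lower in both NB lines than in the CHLA lines were UBTF, TCOF1, FBL, MRTO4 and PPAN. UBTF was at 222.8 and 225.1 CPM in CHLA15, 208.5 and 216.0 CPM in CHLA20, 108.4 and 99.5 CPM in NB1643 and 155.0 and 156.6 CPM in NB1691 (-0.78, SE 0.04, edgeR adjusted p = 3.17e-13). MRTO4, a 60S assembly factor and paralog of ribosomal stalk protein P0, was at 80.0 to 94.5 CPM in the CHLA lines, 37.9 and 39.6 CPM in NB1643 and 51.3 and 54.7 CPM in NB1691 (-0.90, SE 0.05, edgeR adjusted p = 1.95e-12). In both genes the 2 CHLA lines lay above the 2 NB lines without overlap. FBL was at 403.5 to 431.5 CPM in the CHLA lines, 325.6 and 358.2 CPM in NB1643 and 209.0 and 214.2 CPM in NB1691 (-0.62, SE 0.04, edgeR adjusted p = 1.04e-10).

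Members that were higher in both NB lines were WDR43, PES1 and GAR1. WDR43 was at 508.1 and 519.4 CPM in NB1691, against 110.0 and 116.8 CPM in NB1643, 95.7 and 98.5 CPM in CHLA20 and 91.2 and 87.6 CPM in CHLA15. The fold change was 2.41 in NB1691 and 0.32 in NB1643 (edgeR adjusted p = 2.13e-18 and 0.000131). WDR43 lies on GRCh37 at chr2:29117533-29171085 on the plus strand. PES1 was at 165.4 and 172.7 CPM in NB1643 and 114.3 and 114.7 CPM in NB1691, against 89.8 to 99.6 CPM in the CHLA lines (0.56, SE 0.04, edgeR adjusted p = 8.78e-11).

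Among the RNA polymerase I genes POLR1A, POLR1B and RRN3 were lower in NB1691 than in the other lines. POLR1A was at 67.0 and 68.6 CPM in NB1691 and at 97.5 to 124.4 CPM in the other 3 lines. POLR1B was at 33.9 and 36.1 CPM in NB1691, against 69.7 to 80.0 CPM. RRN3 was at 42.5 and 44.3 CPM in NB1691, against 67.3 to 73.4 CPM. For none of these 3 genes did NB1643 differ from the CHLA lines past the threshold (edgeR adjusted p = 0.834, 0.111 and 0.633). DKC1 was at 143.2 to 163.3 CPM in the CHLA lines, 169.3 and 180.1 CPM in NB1643 and 144.5 and 150.4 CPM in NB1691, a difference from the CHLA lines of 0.24 in NB1643 and -0.098 in NB1691 (edgeR adjusted p = 0.000635 and 0.0390). Of the 112 other pathway genes 37 were higher and 50 lower in the comparison as designed, beside the 35% and 36.8% of all genes, from PWP2 at -3.44 and PIH1D1 at -1.16 to NMD3 at 1.04 and ZNHIT6 at 1.21.

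Palbociclib for 72 h lowered some of the members in every line, and each line was tested against its own controls. In CHLA15, 5 members were lower and 2 higher, against 15.6% and 14.2% of all genes. In CHLA20, 13 were lower and 0 higher, against 15.9% and 13.7%. In NB1643, 17 were lower and 4 higher, against 19.7% and 20.3%. In NB1691, 25 were lower and 1 higher, against 15.5% and 17.4%. The median member was at -0.01, -0.10, -0.15 and -0.20 in these lines, with the all-gene median within 0.02 of 0. In CHLA15 the called members were thus no larger a share than of all genes. The dose differed between the CHLA and the NB lines, so line pair and dose cannot be told apart. The counts also leaned on single libraries. Without control replicate 2 or palbociclib replicate 2 of CHLA20, 7 and 8 members were lower there, and without palbociclib replicate 2 of NB1691, 12 were lower there. In CHLA15, without palbociclib replicate 1 or 2 or control replicate 1, 3 were lower, and leaving out any 1 of its 4 libraries left at most 1 higher. With library totals the NB1691 calls over all genes were 2762 higher and 4929 lower, in place of 3847 and 3422. MKI67 went from 284.5 and 224.9 CPM to 6.8 and 6.7 CPM in NB1643 and from 130.5 and 135.9 CPM to 7.2 and 5.0 CPM in NB1691, but only from 490 and 483 CPM to 345 and 409 CPM in CHLA15 and from 537 and 395 CPM to 319.5 and 305.7 CPM in CHLA20. MYCN went from 3093 and 3257 CPM to 2166 and 2232 CPM in NB1643, but from 86.1 and 86.5 CPM to 102.4 and 105.6 CPM in NB1691. In the CHLA lines it was at 2.3 to 3.4 CPM in the controls and 1.9 to 2.2 CPM with palbociclib. The part of MKI67 or MYCN in the members' change was not tested.

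**Figure D5:**
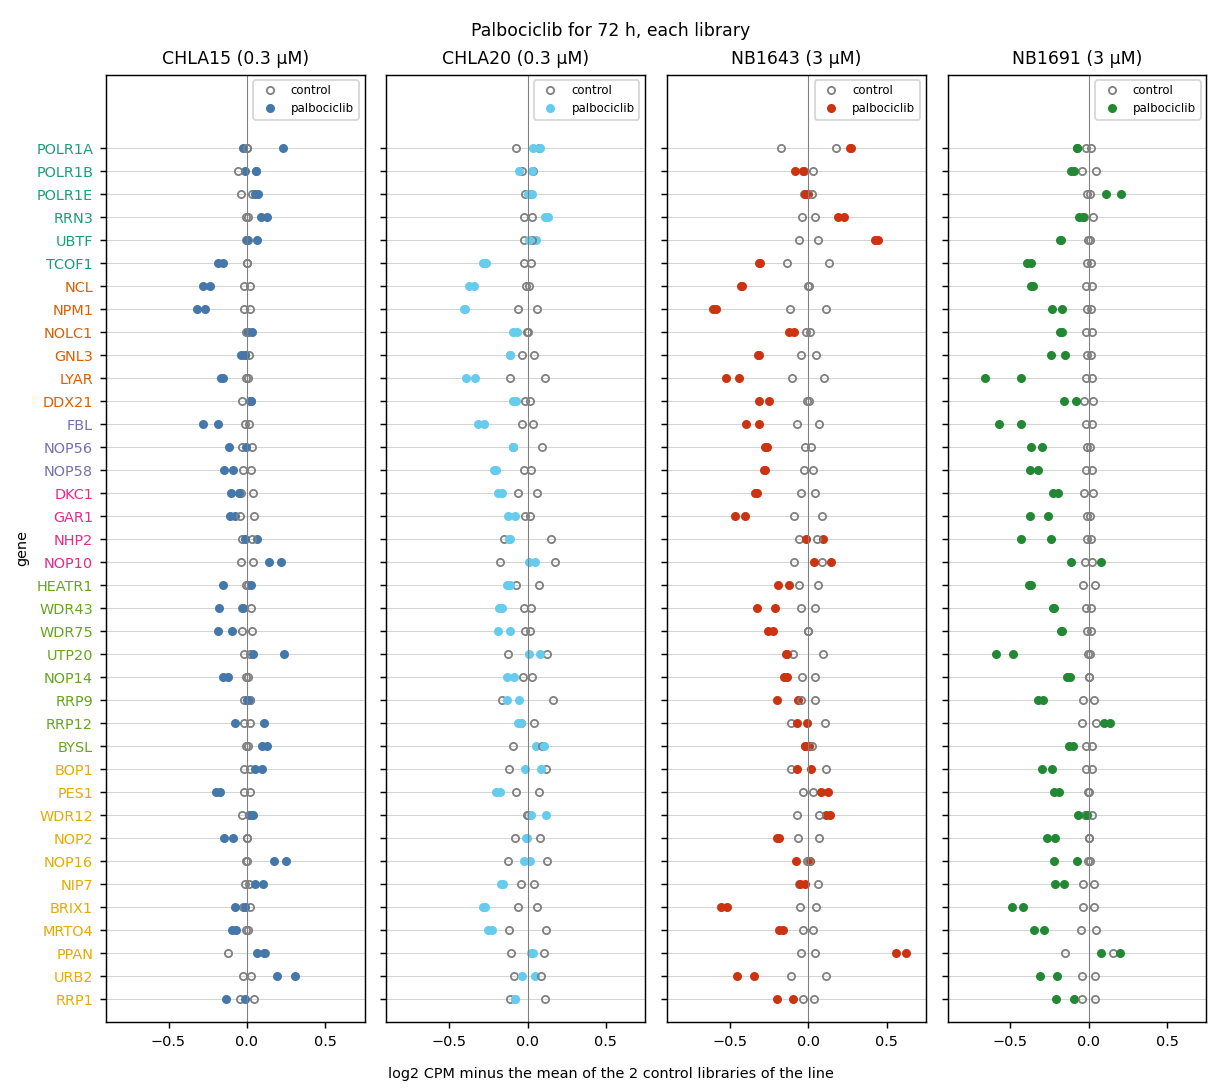
Change of the 38 genes with palbociclib for 72 h in each line (panels, with the dose), as log2 CPM minus the mean of the 2 control libraries of that line, with open grey circles for controls, filled circles for palbociclib libraries and names coloured by role. NCL, NPM1 and FBL lie left of their controls in all 4 panels, and UBTF lies right of them in NB1643 and left in NB1691.

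The members lower in all 4 lines were NCL, NPM1 and FBL, and 8 members were lower in 3 lines, 8 in 2, 8 in 1 and 11 in none. How many of all genes were lower in as many lines was not counted. NCL fell from 1103 and 1074 CPM to 923 and 898 CPM in CHLA15, from 1139 and 1121 CPM to 891 and 872 CPM in CHLA20, from 1723 and 1715 CPM to 1279 and 1281 CPM in NB1643 and from 611 and 628 CPM to 485 and 479 CPM in NB1691. These are changes of -0.26, -0.36, -0.43 and -0.36 (edgeR adjusted p = 0.000135, 3.13e-06, 2.01e-07 and 2.53e-06). FBL changed by -0.23, -0.30, -0.36 and -0.50, with its palbociclib libraries below both controls in each line. In NB1691 it went from 209.0 and 214.2 CPM to 156.5 and 142.1 CPM.

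NPM1 fell in every line under palbociclib, whereas it rose in BE2C cells under GSK-J4. It went from 1144 and 1111 CPM to 936 and 904 CPM in CHLA15, from 1207 and 1308 CPM to 950 and 954 CPM in CHLA20, from 2390.5 and 2810 CPM to 1704 and 1721 CPM in NB1643 and from 946 and 964 CPM to 847 and 812 CPM in NB1691. The changes were -0.29, -0.40, -0.60 and -0.20 (edgeR adjusted p = 0.00121, 5.33e-05, 2.58e-07 and 0.0156). The lines and the experiments differ, and the difference between the 2 compounds was not tested. DKC1 fell in CHLA20, NB1643 and NB1691, by 0.18, 0.33 and 0.21 on the log2 scale, and was at -0.08 in CHLA15 (edgeR adjusted p = 0.327).

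Among the RNA polymerase I genes TCOF1 was lower in CHLA20, NB1643 and NB1691. POLR1B passed the test in no line, with changes of -0.11 to 0.02. POLR1A was higher in NB1643 (0.26, SE 0.09, edgeR adjusted p = 0.0268), where the controls were at 124.4 and 97.5 CPM and the palbociclib libraries at 133.4 and 132.4 CPM. RRN3 went from 67.3 and 71.2 CPM to 78.9 and 81.0 CPM in NB1643 (0.21, edgeR adjusted p = 0.00286). UBTF rose there from 108.4 and 99.5 CPM to 141.1 and 139.4 CPM (0.43, SE 0.05, edgeR adjusted p = 1.65e-06) but fell in NB1691 from 155.0 and 156.6 CPM to 137.3 and 137.5 CPM (-0.18, SE 0.05, edgeR adjusted p = 0.00961). The 3 box C/D genes were all lower in both NB lines, with a median of -0.28 in NB1643 and -0.35 in NB1691. Among assembly factors BRIX1 had the lowest value in NB1643, at -0.54, and PPAN the highest, at 0.58, from 2.4 and 2.2 CPM to 3.4 and 3.5 CPM. PPAN shares exons with the read-through gene PPAN-P2RY11, so that its counts are uncertain.

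The difference in the palbociclib effect was tested between lines at the same dose. Between NB1691 and NB1643 it passed the threshold for 6 of the 38 members, against 22% of all genes. The effect in NB1691 was lower for UBTF, UTP20, NHP2, PES1 and RRN3 and higher for NPM1. Leaving out single libraries gave 2 to 5 lower and 1 to 4 higher. Between CHLA20 and CHLA15 it passed for 0 members, against 2.02% of all genes, with 3 members (NIP7, BRIX1 and URB2) at an unadjusted p under 0.05, against 14.4% of all genes. DESeq2 called NIP7 there and limma-voom called 0, and without control replicate 1 of CHLA20 edgeR called 4. Members that were lower in BE2C with GSK-J4 at 48 h made up 22 of the 25 lower with palbociclib in NB1691 (88%), 15 of the 17 in NB1643 (88.2%), 10 of the 13 in CHLA20 (76.9%) and 3 of the 5 in CHLA15 (60%). Set against the 33 lower with GSK-J4 these are 66.7%, 45.5%, 30.3% and 9.09%. For comparison, 33 of all 38 members were lower with GSK-J4.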

How the data were processed

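Counts per gene of total RNA libraries were deposited by the authors, who per the study's methods aligned reads to GRCh37-lite and counted with htseq-count. The submitters' processing notes name STAR 2.5.3a. The methods name a mouse annotation and the labels an extraction from xenografts, whereas the symbols are human and the methods speak of cells. Strand use is not given in the sources used here, and 12 members share exon bases with a gene on the other strand. Each BE2C library was the sum of 2 deposited files.

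edgeR 4.0.16 in R 4.3.3 was used (TMM, filterByExpr, quasi-likelihood F test, Benjamini-Hochberg adjustment over all genes, threshold 0.05), in a fit for each of the 3 experiments over 17472 genes (siRNA), 17734 genes (GSK-J4) and 22133 genes (palbociclib), and tested on simulated data. Alternatives used DESeq2 1.42.0 and limma 3.58.1. Members and lists were chosen with earlier results of these data known. Values in every library are given for the members with the 3 highest and 3 lowest fold changes in the GSK-J4 48 h, siKDM6B and untreated comparisons and for POLR1A, POLR1B, UBTF, RRN3, NCL, NPM1, FBL and DKC1. WDR46, PNO1 and the other further pathway genes are the 2 highest and 2 lowest past the threshold. Members named beside these were chosen after their values were seen. One marker gene of the lists, and the sum over its list, are not reported here.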

Additional observations from a re-analysis of the deposited data

Results flagged for a closer look

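The palbociclib effect differed between NB1691 and NB1643, at the same dose of 3 µM, for 6 of the 38 members by the interaction test (edgeR adjusted p under 0.05), against 22% of all genes, so members were not called more often than genes at large. UBTF, the ribosomal DNA binding factor, stood out with opposite directions, 0.43 in NB1643 and -0.18 in NB1691, a difference of -0.61 (SE 0.07, edgeR adjusted p = 5.74e-06). UTP20 was at -0.14 and -0.53, a difference of -0.39 (edgeR adjusted p = 0.0201). For NHP2 the effects were 0.04 and -0.33, a difference of -0.37 (edgeR adjusted p = 0.0251), and for PES1 0.10 and -0.21, a difference of -0.31 (edgeR adjusted p = 0.00582). RRN3 was at 0.21 and -0.05, a difference of -0.26 (edgeR adjusted p = 0.0143). NPM1 was the member that fell further in NB1643, at -0.60 against -0.20, a difference of 0.40 (edgeR adjusted p = 0.00254). The controls of NB1643 were the replicate pair that differed most, and the NB1691 libraries had low HAND2 and GATA3 and high COL1A1. The part of either was not tested. With 1 library left out at a time, 2 to 5 members had a lower effect in NB1691 and 1 to 4 a higher one. The lower count was 3 without either NB1643 palbociclib library, without NB1691 palbociclib replicate 1 or without NB1691 control replicate 1, and 2 without NB1691 control replicate 2. The higher count was 4 without NB1643 control replicate 2.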

How the results depend on the processing

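In the siRNA and GSK-J4 comparisons and in CHLA20, NB1643 and NB1691 with palbociclib, the members' median kept its sign under every alternative run: -0.22 to -0.08 for siKDM6B, -0.34 to -0.28 for GSK-J4 at 24 h, -0.64 to -0.50 at 48 h, -0.28 to -0.20 for 48 h against 24 h, -0.16 to -0.08 in CHLA20, -0.20 to -0.09 in NB1643 and -0.29 to -0.16 in NB1691. It crossed 0 in CHLA15 (-0.04 to 0.01) and between untreated lines (-0.48 to 0.25). Requiring an absolute log2 fold change above 0.5 left 0 higher and 9 lower at 24 h, 0 higher at 48 h, 0 higher and 3 lower for 48 h against 24 h, 0 of either direction in CHLA15, 0 lower in CHLA20, 1 higher and 2 lower in NB1643, 0 higher and 3 lower in NB1691, 0 higher and 1 lower for the NB1691 minus NB1643 effect, and 2 higher and 6 lower between untreated lines, since fewer genes can pass. How many of all genes passed with that fold change required was not counted. With each file as a sample siKDM6B gave 1 higher and 3 lower, but each library was deposited as 2 files, which are not replicates. In CHLA15, 8 were lower with limma-voom, library totals or upper quartile, 0 were higher with library totals, and 4 were higher with only the groups compared. That setting gave 7 lower in CHLA20 and 2 higher in NB1691. NB1691 had 0 higher with library totals, with no filter beyond 1 count and with the replicate block. DESeq2 called 1 lower for the CHLA20 minus CHLA15 effect. The cause of these differences was not tested.

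Replicate numbers did not pair the samples, with deviation correlations of -0.09 to 0.11, and the block changed no other count by over 1.5 times. With 1 library left out, the counts ran from 1 to 2 higher at 24 h, 0 to 1 higher and 3 to 4 lower in CHLA15, 7 to 18 lower in CHLA20, 0 to 1 higher and 12 to 21 lower in NB1691, 0 to 4 lower for the CHLA20 minus CHLA15 effect, and 1 to 4 higher and 2 to 5 lower for the NB1691 minus NB1643 effect. Where this left a group with 1 library, that library was assumed to vary like the others.

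Between untreated lines library totals gave 3 higher, and turned the sign of POLR1E (-0.12), NOP56 (-0.077), NOP58 (-0.16), DKC1 (-0.12), NOP10 (-0.16), HEATR1 (-0.018), UTP20 (-0.16), WDR12 (-0.17), NOP16 (-0.18) and NIP7 (-0.13). With the libraries of a line summed, 0 were higher and 0 lower, with calls over all genes not counted, and NCL was at 0.10. Lines were also left out in turn, an alternative chosen after seeing the data. Without CHLA15, NOP56 was at -0.012. Without NB1643, 4 were higher, and POLR1E (-0.92), NPM1 (-0.37), NOP56 (-0.32), NOP58 (-0.44), DKC1 (-0.10), HEATR1 (-0.038), WDR75 (-0.13), WDR12 (-0.64) and NOP16 (-0.44) turned. Without NB1691, 22 were higher and 6 lower, and POLR1B (0.10), NCL (0.67), NOLC1 (0.33), GNL3 (0.35), LYAR (0.013), DDX21 (0.52), RRP9 (0.46), BOP1 (0.057), BRIX1 (0.26), URB2 (0.28) and RRP1 (0.23) turned. Depth limited the precision of PPAN most, at 2.2 to 6.0 CPM.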

Other observations

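A list of 11 host genes of small nucleolar RNAs, which carry these RNAs in their introns, was mostly higher in BE2C cells with GSK-J4. The list holds GAS5, ZFAS1 and genes of the SNHG series, and none of the 38 members, most of which were lower. Exons of the members NCL, GNL3, NOP56, NOP58 and DKC1 also share bases with annotated small nucleolar RNAs on the same strand. These members were at -0.50, -0.54, -0.61, -0.05 and -0.62 at 48 h. Of the 11 genes listed, 9 were higher at 24 h and 9 at 48 h, against 27.3% and 37.1% of all genes, with medians of 0.25 and 0.62 on the log2 scale. GAS5 and ZFAS1, named here after their values were seen, were at 1.23 and 1.06 at 48 h (edgeR adjusted p = 2.79e-35 and 3.27e-32), and SNHG15 and SNHG3 were lower, at -0.34 and -0.10. With palbociclib the same list had 0 genes higher and 6 lower in CHLA15 (median -0.28), 2 higher and 1 lower in CHLA20, 3 higher and 1 lower in NB1643, and 6 higher and 3 lower in NB1691 (median 0.42). The shares of all genes were 14.2%, 13.7%, 20.3% and 17.4% higher and 15.6%, 15.9%, 19.7% and 15.5% lower in these lines. In the siRNA libraries edgeR called 0 of the 11, as it called 0 of all genes. The median against siCtrl was 0.73 in the library labelled N1, with 10 of 11 above, but -0.066 in N2 and -0.21 in N33, with 3 of 11 above in each and no replicate of any.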
